A study of Rattus norvegicus with 2 samples.

Results

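Potassium channel subunit genes were taken as all genes whose symbol starts with Kcn and whose transcripts are in the mRNA table of a comparison of rat hypothalamus before and at puberty. The rule gave 97 gene IDs with 94 symbols and 123 transcripts, of 22777 genes and 26324 mRNA transcripts in all. Both groups were female Sprague Dawley rats, with no treatment or altered allele named in the labels: the prepubertal group was taken at postnatal day 25 and the pubertal group at first estrus, at postnatal day 35. According to the methods each stage had 3 rats, but the table has 1 column of values per stage, and the sources used here do not say how the animals were merged, so a stage is treated as 1 library. No spread between animals can be had from 1 library per stage, no test between stages was made, and stage cannot be told apart from any other difference between the libraries. The values are FPKM (fragments scaled for the length of the transcript and for the total of mapped fragments), summed over the transcripts of a gene.

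Potassium channels let potassium ions leave the cell and so set the resting potential, end the action potential and limit how fast a neuron can fire again. Voltage-gated (Kv) channels open on depolarization and are built from pore subunits with auxiliary subunits beside them. Inward rectifiers (Kir) pass current near rest and are gated by G proteins, ATP or ion gradients, K2P channels (each subunit carrying a pair of pore domains) give background leak, and calcium- and sodium-activated channels open when those ions rise inside the cell. In the hypothalamus such channels shape the firing of neurosecretory neurons, link it to glucose and transmitters, and, in astrocytes, take up potassium released by neurons.

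The upstream sequences of 3 genes are shown first, because these were the members with a mean of at least 1 FPKM that passed the fold threshold used below. They are the 250 bases before the RefSeq start of each gene in the GRCr8 assembly, 5′ to 3′ on the strand of the gene, and capitals mark GC boxes (GGGCGG on either strand). Kcnj5 lies on the minus strand with its window at chr8:39011097-39011346, Kcne1l (Kcne5 in RefSeq) on the minus strand at chrX:110727850-110728099, and Kcnf1 on the minus strand at chr6:45693707-45693956.
Kcnj5: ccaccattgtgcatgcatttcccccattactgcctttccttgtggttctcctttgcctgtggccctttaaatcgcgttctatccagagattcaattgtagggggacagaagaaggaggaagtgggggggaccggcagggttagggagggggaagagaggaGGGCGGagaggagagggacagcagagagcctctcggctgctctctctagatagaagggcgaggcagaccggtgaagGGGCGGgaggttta
Kcne1l: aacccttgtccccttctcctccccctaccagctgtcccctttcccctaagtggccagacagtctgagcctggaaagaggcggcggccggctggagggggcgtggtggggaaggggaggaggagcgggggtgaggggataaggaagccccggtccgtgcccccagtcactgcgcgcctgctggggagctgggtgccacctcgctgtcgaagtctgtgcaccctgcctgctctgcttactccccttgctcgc
Kcnf1: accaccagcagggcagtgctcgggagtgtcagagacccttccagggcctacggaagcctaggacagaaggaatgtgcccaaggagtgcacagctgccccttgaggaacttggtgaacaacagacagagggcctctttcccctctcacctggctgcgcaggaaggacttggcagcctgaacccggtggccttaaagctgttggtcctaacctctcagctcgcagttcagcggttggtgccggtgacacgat

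The Kcnj5 window, upstream of a gene that was higher in the pubertal library, held 2 GC boxes. The windows of Kcne1l and Kcnf1 held none of the 5 motifs searched. Among members, 63 of the 94 symbols matched a RefSeq window. GC boxes were present in 30 of these 63 windows (47.6%), against 32.4% of all 27457 windows of the same length. The TATA box TATAAA was present in 2 member windows (3.17%) against 13.1% of all windows, and the nuclear receptor half-site AGGTCA in 3 (4.76%) against 13.7%. The E-box CACGTG was found in 2 member windows (3.17%) against 5.80% of all, and the cyclic AMP response element TGACGTCA in 0 of 63 against 1.70%. The median GC content of the member windows was 60.8% with 11 CpG dinucleotides, against 52% and 6 over all windows. Both strands were searched, and a match describes only the letters in the window.

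Most potassium channel subunit genes were transcribed in the hypothalamus. Of the 97 gene IDs, 72 had a mean FPKM of at least 1 over both libraries and are called expressed here, 25 were under 1, and 18 reached a mean of 20. Kcna10, Kcne1 and Kcnu1 were listed at 0 in both libraries. A count of 0 still allows an expected number of up to 3 fragments. That is 0.0964, 0.440 and 0.0465 FPKM in the prepubertal library and 0.123, 0.554 and 0.0595 FPKM in the pubertal library. The Kv pore family had 29 expressed genes of 40, the Kv auxiliary subunits 10 of 12, the inward rectifiers 13 of 15, the K2P channels 10 of 16 and the calcium- and sodium-activated family 9 of 13. The remaining member, Kcnrg, is named as a regulator of potassium channels and belongs to no family.

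**Figure D1:**
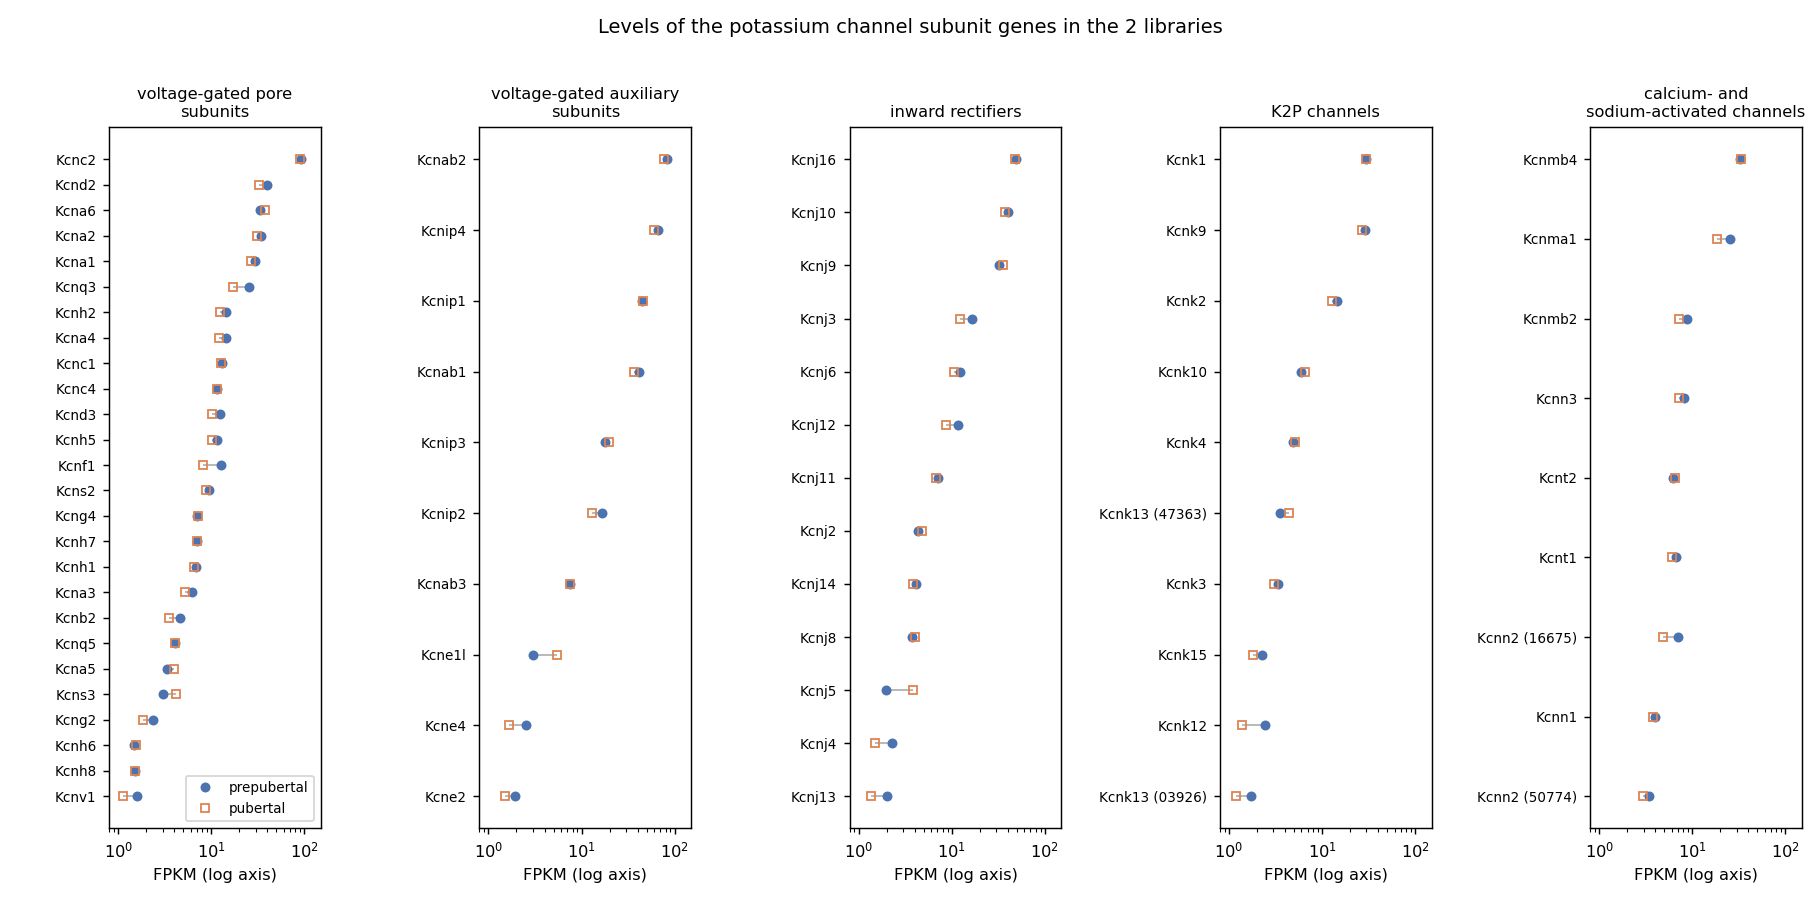
FPKM of 68 of the 71 expressed genes of the 5 families (the other 3 are not reported here) on a log axis, prepubertal library as filled circles and pubertal library as open squares, 1 panel per family. Symbols with 2 gene IDs carry the last digits of the ID, and in nearly every gene the 2 marks lie close together, with Kcnq3, Kcnf1, Kcnma1, Kcne1l and Kcnj5 among those apart.

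The highest level of any member was that of Kcnc2, a Kv3 subunit of fast-repolarizing channels, at 91.7 FPKM before and 90.0 FPKM at puberty. Next came auxiliary subunits, namely Kcnab2 (a beta subunit of Kv1 channels) at 82.3 and 77.5 FPKM and Kcnip4 (a calcium-binding partner of Kv4 channels) at 66.1 and 60.2 FPKM. Genes of astrocytic channels, Kcnj16 at 49.3 and 47.8 FPKM and Kcnj10 at 39.9 and 37.5 FPKM, led the inward rectifiers. The 10 highest members held 46.0% of the members' summed FPKM before and 47.1% at puberty.

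The members as a whole were slightly lower in the pubertal library. Their summed FPKM was 1141 before and 1059 at puberty, a ratio of 0.928, and their share of all mRNA FPKM was 0.148% and 0.132%. Changes per gene are given as log2 of (pubertal FPKM + 1) over (prepubertal FPKM + 1), which understates the change of low genes. Of the 72 expressed members, 52 were lower and 20 higher (72.2% lower), against 51.0% lower of all 13804 expressed genes. The median was -0.09 (quartiles -0.24 and 0.00) against -0.01 for all expressed genes. The threshold of 1.5-fold in FPKM + 1 was reached upward by 2 members, against 1.77% of all expressed genes, and downward by 1, against 2.41%, so large changes were about as rare among members as elsewhere. Of the expressed members, 51 (70.8%) lay within 20% of their prepubertal value, as did 73.4% of all expressed genes.

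The lower values were clearest among members with a mean of at least 5 FPKM. Of members with a mean of 5 to 20 FPKM, 22 of 28 were lower with a median of -0.15, where all genes of that level had 54.2% lower and a median of -0.03. Of members above 20 FPKM, 14 of 18 were lower with a median of -0.09, against 44.6% and 0.02. At 1 to 5 FPKM the members came closest to the rest, with 16 of 26 lower, or 61.5% against 56.9%. Their median there was -0.08 against -0.05, and their ratio of sums was the higher, 0.988 against 0.958. Long transcripts were lower than short ones over all genes, with medians from 0.08 in the shortest of 10 length classes to -0.13 in the longest. Members had a median length of 2178 nt against 1995 nt, and their median was below that of all genes in 9 of the 10 classes. Direction is read on the authors' scale. Setting the median of all genes equal, or the summed neuron markers equal, turned the sign of 7 expressed members, all of them with a change under 0.05 in size, among them Kcnc2, Kcnc1, Kcnh7, Kcnj16, Kcnk1 and Kcnq5.

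Markers of neighbouring tissue and of other cells differed between the libraries too, and their part in the values of the members was not tested. The dissection is called hypothalamus, and its marker genes were all found, from Pmch at 1675 and 2723 FPKM and Oxt at 411 and 686 FPKM down to Nkx2-1 at 2.67 and 2.47 FPKM and Kiss1 at 1.46 and 3.78 FPKM. Of 15 hypothalamic markers, 12 were higher in the pubertal library and 3 of these passed 1.5-fold (sum 2814 and 4236 FPKM). All 7 thalamic markers were lower (sum 406 and 344 FPKM, median -0.36), as were 4 of 5 expressed markers of cortex and other telencephalon (sum 66.6 and 51.8 FPKM, median -0.50), of which Slc17a7 was at 26.2 and 12.8 FPKM and carried most of the difference in the sum, Ppp1r1b went the other way at 26.3 and 29.1 FPKM, and Emx1 was under 1 in both libraries. Of 8 neuron markers 7 were lower, or 6 with equal medians of all genes (median -0.18, sum 3378 and 3285 FPKM), whereas all 6 microglial markers were higher (median 0.20) and all 4 red blood cell markers passed 1.5-fold upward (sum 6406 and 12539 FPKM). Astrocyte markers had a median of 0.00, ependymal markers of 0.31 and immature neuron markers of -0.04. In 4 lists the median and the sum differed in direction: oligodendrocyte markers had a median of -0.15 with a ratio of sums of 1.07, mural cell markers -0.23 with 1.02, endothelial markers -0.11 with 1.06 and choroid plexus markers 0.23 with 0.886. Of 5 pituitary markers 4 were higher, Prl being at 0 and 3.40 FPKM. In such bulk tissue, fewer cells of a type and less RNA per cell cannot be told apart.

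The FPKM were found to be whole multiples of a step that depends on transcript length, which gives the number of fragments behind a value. In transcripts over 1000 nt of genes with 1 transcript and 1 to 20 fragments, 95.4% of 1895 prepubertal and 95.4% of 2055 pubertal values were whole within 0.05. The steps correspond to scaling totals of 2.08e+07 and 1.62e+07 fragments, and 1 fragment on a transcript of 2000 nt was worth 0.0276 and 0.0353 FPKM. From these numbers, 95% intervals (exact, conditional binomial) of the ratio of pubertal to prepubertal FPKM are given below for genes over 450 nt. Genes with several transcripts and values above 20 fragments were outside the check of whole numbers. For several transcripts the numbers were summed over the transcripts of the gene. The intervals cover counting error only and compare these libraries, not the stages. Of the 70 expressed members with an interval, it lay below 1 in 20 (28.6%), against 24.1% of 13294 expressed genes, and above 1 in 4 (5.71%), against 19.6%. An interval that leaves out 1 was thus common over all genes.

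**Figure D2:**
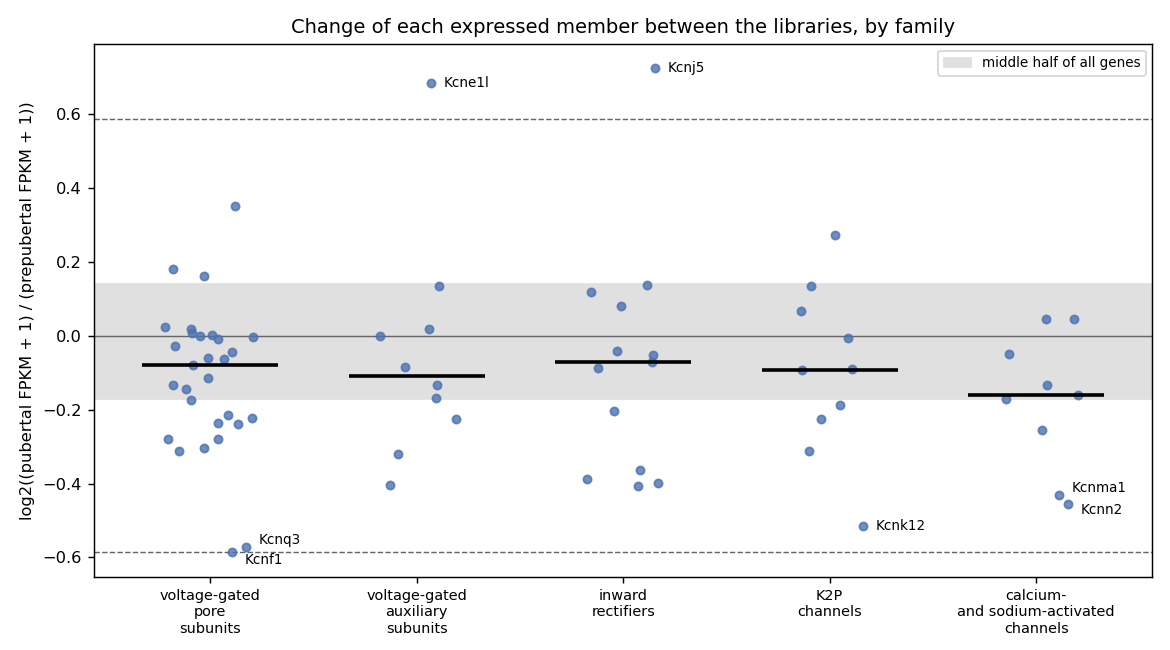
Change of each of 71 expressed genes, log2 of (pubertal FPKM + 1) over (prepubertal FPKM + 1), in the 5 families, with the family median as a black bar, the middle range of all expressed genes (quartiles -0.17 to 0.14) in grey and the 1.5-fold threshold dashed. The family medians lie between -0.16 and -0.07, and Kcnj5, Kcne1l and Kcnf1 lie outside the dashed lines.

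All 5 families had more lower than higher members, and their medians lay close together. Counts and medians are of expressed members, and sums are of all listed members of a family. The Kv pore subunits had 21 lower and 8 higher (median -0.08, sum 464 and 424 FPKM), the Kv auxiliary subunits 7 and 3 (median -0.11, sum 284 and 269 FPKM). The inward rectifiers had 9 lower and 4 higher (median -0.07, sum 188 and 178 FPKM) and the K2P channels 7 and 3 (median -0.09, sum 99.2 and 94.9 FPKM). The calcium- and sodium-activated family had 7 lower and 2 higher, with the lowest median, -0.16, and the lowest ratio of sums, 0.886 (102 and 90.6 FPKM). The Kv pore subunits, with the longest transcripts of the 5 families (median 2813 nt), had counts that depended on the scaling: they had 17 lower and 12 higher both after centring within length classes (median -0.02, against 0 for all genes) and with equal medians of all genes (median -0.02, against 0.04). In the other 4 families the counts changed by at most 1 under these scalings. The medians of the families differed by less than the spread within any of them, and whether the families differ was not tested.

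Among the Kv pore subunits, the fast Kv3 genes described here had nearly the same level in both libraries. Kcnc2 had a ratio of 0.981 (interval 0.939 to 1.03, 4616 and 3473 fragments). Kcnc1 was at 13.1 and 12.7 FPKM and Kcnc4 at 11.5 and 11.6 FPKM. Their intervals also included a ratio of 1.

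The Kv1 subunits, which form low-threshold channels of axons and terminals, moved in both directions. Kcna6 was at 33.8 and 37.9 FPKM, a ratio of 1.12 (interval 1.07 to 1.17). Kcna2 was at 33.9 and 30.6 FPKM (interval of the ratio 0.833 to 0.979) and Kcna1 at 29.7 and 27.0 FPKM (0.812 to 1.02). Kcna6 thus passed Kcna2 in order of level, from nearly equal values before puberty. Kcna4, an inactivating Kv1 subunit, was at 14.4 and 12.1 FPKM. Kcnb2, a Kv2 subunit of delayed rectifier channels, was lower, at 4.65 and 3.55 FPKM.

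The Kv4 subunits of the A-type current, which delays the next spike, were lower together, with a sum of 53.7 and 43.1 FPKM (ratio 0.802). Kcnd2 was at 40.1 and 32.3 FPKM (ratio 0.805, interval 0.738 to 0.877, 1363 and 859 fragments). Kcnd3 was at 12.5 and 10.1 FPKM (ratio 0.810, interval 0.697 to 0.940). The low Kcnd1, with a mean under 1, was at 1.05 and 0.649 FPKM. Their Kcnip binding partners moved in both directions. Kcnip4 had a ratio of 0.911 (interval 0.817 to 1.01), Kcnip1 was at 44.8 and 45.4 FPKM and Kcnip3 at 17.7 and 19.5 FPKM. Kcnip2 was at 16.6 and 13.1 FPKM, a ratio of 0.788 (interval 0.696 to 0.891), close to the ratios of Kcnd2 and Kcnd3. Of the Kv4 partners outside the Kcn genes, Dpp6 was at 103 and 88.7 FPKM and Dpp10 at 57.7 and 50.6 FPKM. The level of Kcnip4 over that of Kcnd2 was 1.65 before and 1.86 at puberty.

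Kcnq3, a Kv7 subunit of the channel of the M-current that damps repetitive firing, was among the members with the largest changes. It was at 25.7 FPKM before and 17.0 FPKM at puberty, a ratio of 0.660 (interval 0.600 to 0.726, 1263 and 650 fragments). At 1.49-fold in FPKM + 1 it lay just short of the threshold of 1.5, and it passed with a pseudocount of 0.1 (-0.60 on the log2 scale) or with the highest transcript alone (-0.66). Kcnq5, another Kv7 subunit, was at 4.1 and 4.06 FPKM (interval 0.790 to 1.24), and the intervals of the ratios of Kcnq3 and Kcnq5 did not overlap.

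Of the Kv10 to Kv12 genes, Kcnh7 was at 7.01 and 6.99 FPKM and Kcnh2, an ERG channel, at 14.5 and 12.3 FPKM (interval 0.775 to 0.938). Kcnh5 was at 11.6 and 10.1 FPKM and Kcnh1 at 6.85 and 6.52 FPKM. Kcnh3, a channel known mostly from the forebrain, was at 1.14 and 0.374 FPKM, a ratio of 0.328 (interval 0.193 to 0.534, 82 and 21 fragments). Its log2 change of -0.64 was past 1.5-fold, but its mean was under 1, so it is not counted among the expressed members. It was lower together with the telencephalic markers given above, and their part in its value was not tested.

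The silent subunits form no channel alone and modify Kv2 channels. Kcnf1 was at 12.7 FPKM before and 8.13 FPKM at puberty, a ratio of 0.640 (interval 0.528 to 0.773, 333 and 167 fragments), and was the only expressed member past the threshold downward with the pseudocount of 1 and summed transcripts, at a log2 change of -0.59. It was at the very edge, at 1.501-fold, and lost the call when the libraries were set to equal medians (-0.54) or equal neuron markers (-0.55). Kcns3, in contrast, was at 3.05 and 4.16 FPKM (ratio 1.37, interval 1.07 to 1.75). Kcns2 was at 9.55 and 8.74 FPKM and Kcng4 at 7.03 and 7.13 FPKM.

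The remaining auxiliary subunits were mostly lower. Kcnab1 was at 41.3 and 36.6 FPKM (interval 0.836 to 0.940), whereas the interval of Kcnab2 was 0.884 to 1.004. Kcne1l, a single-span subunit of the Kcne family, was at 3.02 and 5.45 FPKM, a log2 change of 0.68. Its listed transcript has 432 nt, too short for a number of fragments, so its counting error is unknown here. Kcne4 was at 2.55 and 1.68 FPKM and Kcne2, which the choroid plexus also uses, at 1.92 and 1.498 FPKM. Kcne2 rests on 8 and 5 fragments, with an interval of 0.200 to 2.70, so no difference was detectable at this depth.

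Among the inward rectifiers, the G protein-gated Kir3 genes carry the slow inhibition by transmitters and neuropeptides. Kcnj5 was the expressed member with the largest change on the log2 scale, at 1.95 FPKM before and 3.88 FPKM at puberty, a log2 change of 0.72 and a ratio of 1.98 (interval 1.27 to 3.15). It rests on 34 and 53 fragments. Kcnj3, with which the other Kir3 subunits assemble, went the other way, at 16.5 and 12.3 FPKM (ratio 0.744, interval 0.673 to 0.823, 1057 and 615 fragments). Kcnj6 was at 12.3 and 10.6 FPKM (interval 0.736 to 0.9998) and Kcnj9 at 32.4 and 35.2 FPKM (interval 1.005 to 1.18). The sum of the 4 genes was nearly the same, 63.1 and 61.9 FPKM, but its make-up was not: Kcnj9 over Kcnj3 was 1.96 before and 2.87 at puberty, Kcnj9 over Kcnj6 was 2.63 and 3.33, and Kcnj5 over Kcnj3 was 0.118 and 0.316.

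The astrocytic pair Kcnj10 and Kcnj16, whose products join in the channel that clears potassium, had ratios of 0.939 (interval 0.851 to 1.04) and 0.971 (0.900 to 1.05). Kcnj16 over Kcnj10 was 1.23 and 1.28. The astrocyte markers moved both ways, 4 being higher and 3 lower, with Gja1 at 106 and 66.3 FPKM and Aldh1l1 at 16.9 and 21.6 FPKM.

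The ATP-sensitive Kir6 genes, which tie firing and vessel tone to metabolism, had nearly the same sum in both libraries, 10.8 and 10.7 FPKM. Kcnj11 was at 7.04 and 6.76 FPKM and its sulfonylurea receptor Abcc8 at 3.85 and 3.23 FPKM. Kcnj8, a mural cell gene, was at 3.71 and 3.98 FPKM, whereas its receptor Abcc9 was at 4.45 and 2.94 FPKM. Abcc9 over Kcnj8 was thus 1.198 and 0.739. Of the 5 mural cell markers found, 4 were lower, or 3 with equal medians of all genes, and their part in these values was not tested.

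The Kir2 genes, which hold the resting potential, were lower in 3 of 4 cases. Kcnj12 was at 11.7 and 8.61 FPKM (ratio 0.733, interval 0.631 to 0.851). Kcnj4, known mostly from the forebrain, was at 2.28 and 1.51 FPKM (interval 0.475 to 0.914). Kcnj2 was at 4.31 and 4.84 FPKM. Kcnj13, a channel of choroid plexus and other epithelia, was at 2.02 and 1.35 FPKM with an interval of 0.379 to 1.14. The choroid plexus marker Ttr was at 29.0 and 23.0 FPKM, while 3 of the 4 expressed markers of that tissue were higher.

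The K2P leak channels of high level were close in the 2 libraries. Kcnk1 was at 29.8 and 29.6 FPKM (interval 0.895 to 1.11) and Kcnk9, an acid-sensitive TASK channel, at 28.9 and 27.0 FPKM (0.841 to 1.04). Kcnk3, the other TASK channel of neurons, was at 3.35 and 3.08 FPKM. The mechanosensitive Kcnk2 was lower, at 14.6 and 12.7 FPKM (interval 0.783 to 0.967), and its relative Kcnk10 was at 5.88 and 6.55 FPKM. Kcnk12 was at 2.42 and 1.39 FPKM, a ratio of 0.577 (interval 0.380 to 0.859, 82 and 37 fragments) and 1.43-fold in FPKM + 1, and passed 1.5-fold with a pseudocount of 0.1 (-0.75 on the log2 scale). Kcnk13, a channel of microglia, has 2 gene IDs, of which the longer was at 3.53 and 4.47 FPKM (interval 0.978 to 1.64) and the shorter, with a transcript of 342 nt, at 1.71 and 1.19 FPKM. How fragments were divided between the 2 IDs is not known. All 6 microglial markers were higher, from 0.11 to 0.49 on the log2 scale, whereas the 2 Kcnk13 IDs went in opposite directions. The part of the markers in the values of Kcnk13 was not tested.

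In the calcium-activated family, the pore gene of the BK channel and its neuronal beta subunit parted. Kcnma1 was at 25.2 and 18.4 FPKM, a ratio of 0.732 (interval 0.677 to 0.791, 1780 and 1018 fragments). Kcnmb4, whose product slows BK gating and makes it resistant to some toxins, was at 32.3 and 33.3 FPKM (ratio 1.03, interval 0.915 to 1.16). Kcnmb4 over Kcnma1 was 1.28 before and 1.81 at puberty, and the intervals of their ratios did not overlap. Kcnmb2 was at 8.81 and 7.22 FPKM.

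The SK channels, which make the afterhyperpolarization after a burst, were lower in all 4 expressed IDs. Kcnn4, with a mean under 1, went the other way, at 0.146 and 0.337 FPKM. The sum of all 5 listed SK IDs was 22.5 and 19.0 FPKM (ratio 0.841). Kcnn2 has 2 gene IDs, at 6.93 and 4.78 FPKM (ratio 0.690, interval 0.547 to 0.871) and at 3.41 and 2.92 FPKM, and how fragments were divided between them is not known. Kcnn3 was at 8.06 and 7.11 FPKM (interval 0.7498 to 1.04) and Kcnn1 at 3.98 and 3.81 FPKM. The interval of the first Kcnn2 ID lay below 1 and those of the other 3 expressed IDs included it. The sodium-activated Kcnt1 was at 6.69 and 6.02 FPKM and Kcnt2 at 6.26 and 6.48 FPKM, with intervals that included 1.

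**Figure D3:**
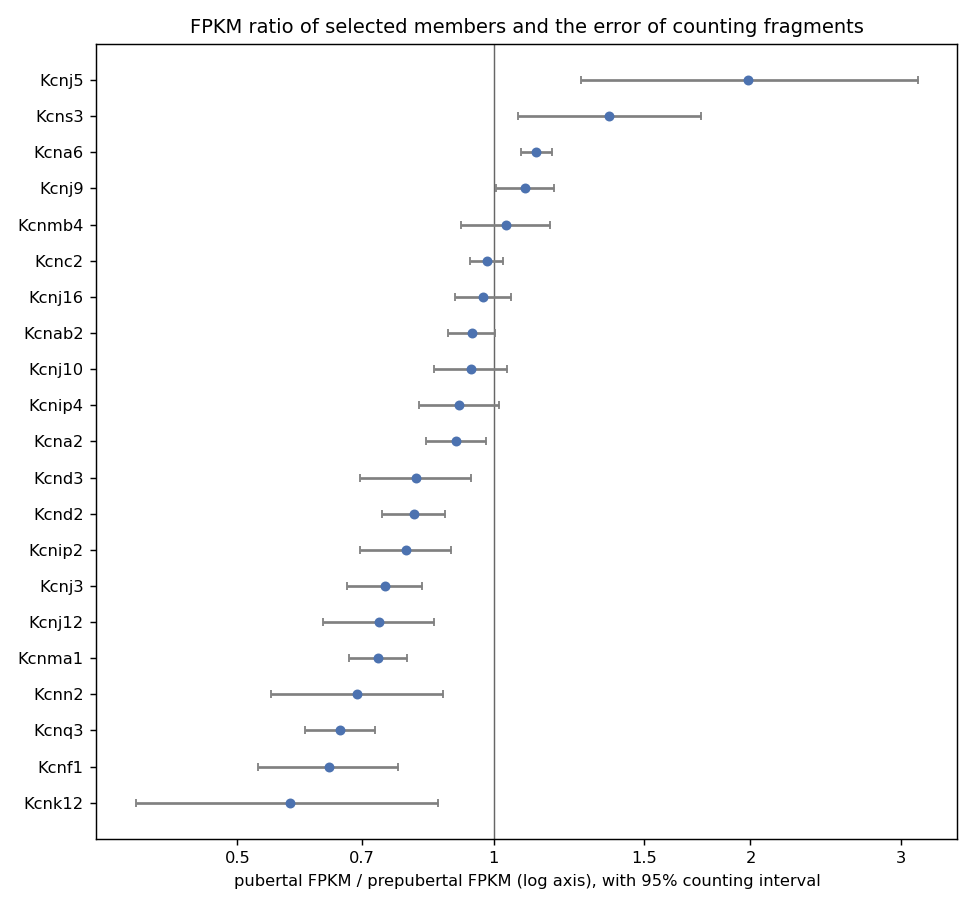
Ratio of pubertal to prepubertal FPKM on a log axis for 21 members, with the 95% interval from the number of fragments (counting error only, 1 library per stage). The intervals of Kcnj5, Kcns3, Kcna6 and Kcnj9 lie above 1, those of Kcnk12, Kcnf1, Kcnq3, Kcnma1 and others below it, and those of Kcnc2, Kcnj16 and Kcnmb4 include it.

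Genes whose products work beside potassium channels, among them channel partners and ion pumps, were also mostly lower. Of 18 partner and pump genes found, 15 were expressed, of which 14 were lower, 1 was higher and 0 passed 1.5-fold in either direction (median -0.21, against -0.01 for all expressed genes). Of all expressed genes 51.0% were lower and 1.77% and 2.41% passed 1.5-fold upward and downward, so a count of 0 among 15 genes is near the background. With equal medians of all genes, 12 of the 15 were lower, against 43.0% of all expressed genes. Adam22, which joins Kv1 channel complexes of axons, was at 65.1 and 55.1 FPKM, and the scaffold gene Dlg2 was at 55.7 and 46.4 FPKM.

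Transcript values within a gene are Cuffdiff's division of shared fragments, so no counting interval is given for them. Of 17 members with more than 1 listed transcript, 13 had a mean of at least 1.

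**Figure D4:**
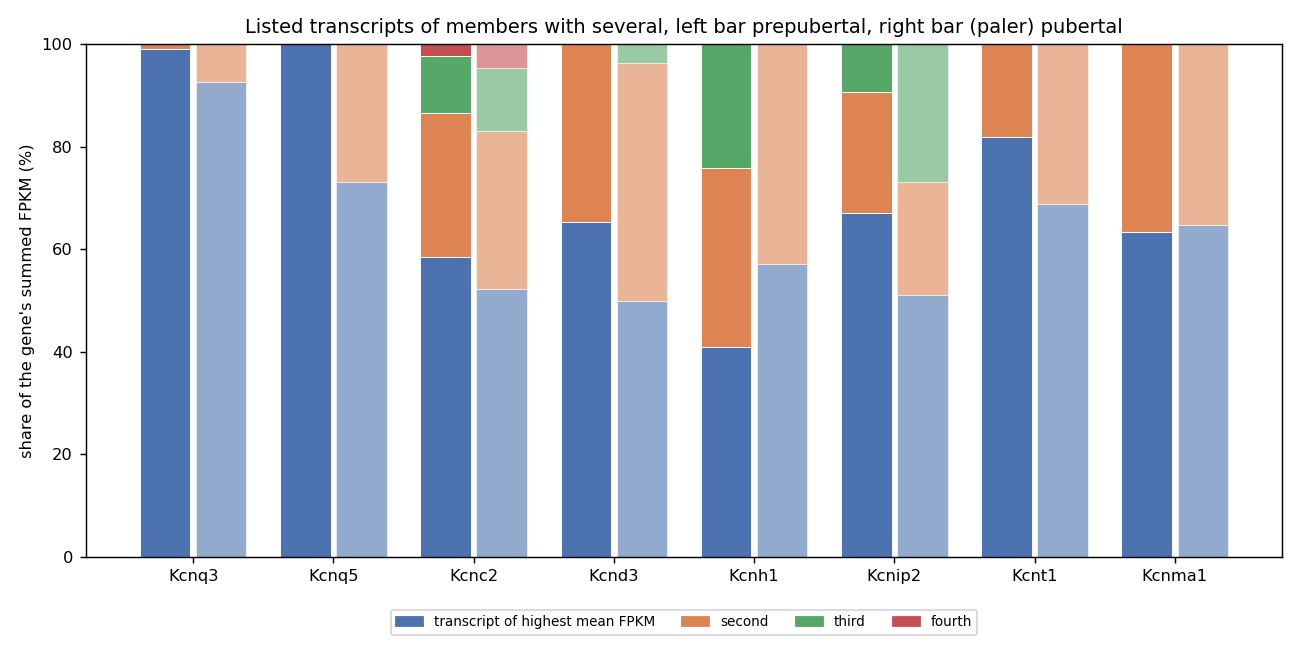
Share of each gene's summed FPKM (%) held by its listed transcripts in 8 members, left bar prepubertal and right, paler bar pubertal, colours ordered by mean FPKM of the transcript. The leading transcript held a smaller share at puberty in Kcnq3, Kcnq5, Kcnc2, Kcnd3, Kcnip2 and Kcnt1. It held a larger share in Kcnh1 (40.9% before and 57.1% at puberty) and nearly the same share in Kcnma1.

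In 3 genes a transcript above 1 FPKM in 1 library was listed at 0 in the other. In Kcnq5, ENSRNOT00000018552 was at 0 before and 1.10 FPKM at puberty (38 fragments, 27.0% of the gene). In Kcnh1, ENSRNOT00000077014 was at 1.66 FPKM before and 0 at puberty, and in Kcnk3, ENSRNOT00000068412 was at 1.06 FPKM and 0. The intervals of the ratio of the summed levels of these 3 genes included 1.

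Other genes shifted between transcripts present in both libraries. In Kcnip2 the leading ENSRNOT00000024750 held 67.0% (11.1 FPKM) and 51.0% (6.66 FPKM), while ENSRNOT00000024709 held 9.36% (1.55 FPKM) and 26.9% (3.51 FPKM). In Kcnd3 the leading ENSRNOT00000051835 held 65.3% and 49.9%, at 8.18 and 5.06 FPKM, which covers the lower level of that gene, since its other transcripts were not lower. In Kcnt1 ENSRNOT00000061773 held 81.9% and 68.7%. In Kcnma1, by contrast, both transcripts were lower and the shares were almost equal, 63.3% and 64.6% for the leading one.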

How the data were processed

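Hypothalamic RNA of female rats was sequenced at 2 stages, prepubertal and pubertal. The authors deposited FPKM per transcript, which they made from ribosomal RNA-depleted, strand-specific paired-end libraries with TopHat, Scripture, Cufflinks 2.1.1 and Cuffdiff 2.1.1; FPKM are scaled for depth and transcript length. The deposited comparison table also holds the authors' log2 ratios, p-values and q-values, which were not used; its gene names were. The build in the submitters' processing notes and the annotation in the methods are different Rnor releases, so no coordinates of these were printed.

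FPKM were summed per gene ID with pandas 2.3.3. Genes with a mean of at least 1 FPKM were called expressed, a pseudocount of 1 was added, and a change of at least 1.5-fold was counted. Fragment numbers were recovered from the steps of the FPKM, and intervals were computed with scipy 1.17.1. This was tested on simulated data. With 1 column per stage no test between stages was made. The alternatives changed the pseudocount, the filter, the fold, the scaling, the length trend and the transcript used.

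Genes were named by a rule: the 3 highest of each family, members past 1.5-fold with 1 FPKM or more in a library, members with another leading transcript, and a list of well-known channels. Further members are named to fill out a subfamily and were chosen after their values were seen. The members, lists, markers and partners were chosen with earlier results of these data known. Some genes that the rule names are not reported here. The lncRNA files were not used here. Promoter windows came from RefSeq (GRCr8).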

Additional observations from a re-analysis of the deposited data

How the results depend on the processing

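The 3 members past the fold threshold became 0 at a 2-fold threshold, 1 with a mean of at least 5 FPKM required (0 higher, 1 lower), 5 with a pseudocount of 0.1 (2 higher, 3 lower), 4 with no filter on level, Kcnh3 joining (2 higher, 2 lower), and 6 when the transcript of highest FPKM stood for its gene (2 higher, 4 lower). With libraries set to equal medians or equal neuron markers the count was 2, Kcnf1 losing its call. The share of lower members ran from 62.5% (equal medians, against 43.0% of all genes) to 78.3% (mean of at least 5 FPKM, against 49.2%). The median of the members ran from -0.04 (equal medians, against 0.04 for all genes) to -0.12 (highest transcript). No direction of a family's median turned under any alternative. The Kv pore median was -0.02 after centring on length classes. No paired analysis was possible because the tables hold 1 column per stage, and no library could be left out. The numbers of fragments limit what low members show: Kcne2 rests on 8 and 5, Kcnj5 on 34 and 53.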
